A study of Caenorhabditis elegans with 2 samples.

Results

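The genes described here are the heat shock and DnaJ chaperone genes of Caenorhabditis elegans, and the measurement is where the intestinal transcription factor ELT-2 sat at their promoters. Members were all protein-coding genes on the nuclear chromosomes of the WBcel235 annotation whose name starts with hsp- or dnj-, which gave 51 of 19973 genes, 22 hsp and 29 dnj. Both replicates came from hermaphrodite L1 larvae, the first larval stage, of strain OP56 (unc-119(ed3) III; wgIs56), taken 6 hours after synchronization by starvation. Its wgIs56 transgene makes ELT-2 with GFP-FLAG at the C terminus, chromatin sheared by sonication was pulled down through GFP, and the recovered DNA was read by sequencing (ChIP-seq). The 2 replicates, which the labels call biological, form 1 group, so no conditions were compared and no test over samples was possible. No untagged strain was analysed here. The worms were taken whole, so a peak does not tell in how many cells, or in which, the site was occupied.

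Chaperones keep other proteins folded. HSP70 proteins bind unfolded stretches and release them in a cycle driven by ATP, DnaJ proteins (HSP40) bring clients to HSP70 and start that cycle, HSP110 exchanges its nucleotide, HSP90 finishes the folding of signalling proteins, and small heat shock proteins hold unfolded proteins without ATP. Separate members serve the cytosol, the endoplasmic reticulum (ER) and the mitochondria, and each compartment has a stress response that raises its own set. In worms the transcription factor HSF-1 acts through heat shock elements, while the worm intestine, where ELT-2 is the main GATA factor, is a tissue in which reporters of the ER and mitochondrial responses are often read.

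A gene was called bound when the summit of a peak in the reproducible list, 5443 peaks that had passed the irreproducible discovery rate (IDR) procedure on genome build ce11, lay between 1000 bp before and 200 bp past the 5′ end of any of its transcripts. By that rule 20 of the 51 genes were bound, 39.2% (95% Wilson interval 27 to 52.9), where 3401 of all 19973 protein-coding genes, 17%, were. The intervals cover counting error only, and the shares are descriptions of genes chosen by name. The hsp genes had 9 of 22 bound and the dnj genes 11 of 29. The number of transcript 5′ ends, which sets how much sequence is searched, averaged 1.61 in the members and 1.49 in all genes. The searched windows averaged 1554 and 1459 bp. The number of 5′ ends averaged 1.6 in the bound and 1.61 in the unbound members, and 1.82 and 1.42 in bound and unbound genes at large. The lists give peaks and no reads, so the sequencing depth of the replicates is unknown.

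The classes, which rest on general knowledge of where each protein works, differed in their counts. Cytosolic chaperones had 6 of 7 genes bound, 85.7% (48.7 to 97.4), ER chaperones 4 of 7, 57.1% (25 to 84.2), and mitochondrial ones 2 of 5, 40% (11.8 to 76.9). Small heat shock genes had 3 of 13, 23.1% (8.18 to 50.3), and the 19 members with no assigned place had 5, 26.3% (11.8 to 48.8). Against 17% of all genes, the lower limit of the cytosolic class lies above the background, and those of the small, mitochondrial and unassigned members lie below it. The cytosolic limit also lies above with either replicate alone, but both replicates had entered the pooled list. The members were chosen with earlier results of these data known, so these limits describe the classes and are not a test. With each summit given to its nearest 5′ end only, the cytosolic class had 3 of 7 bound, 42.9%, against 14.1% of all genes. The ER class depended on dnj-7, which is lost with either replicate alone: it then had 3 of 7, 42.9% (15.8 to 75), with a lower limit below the background. The classes hold few genes and their intervals overlap, and the difference between them was not tested.

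**Figure D1:**
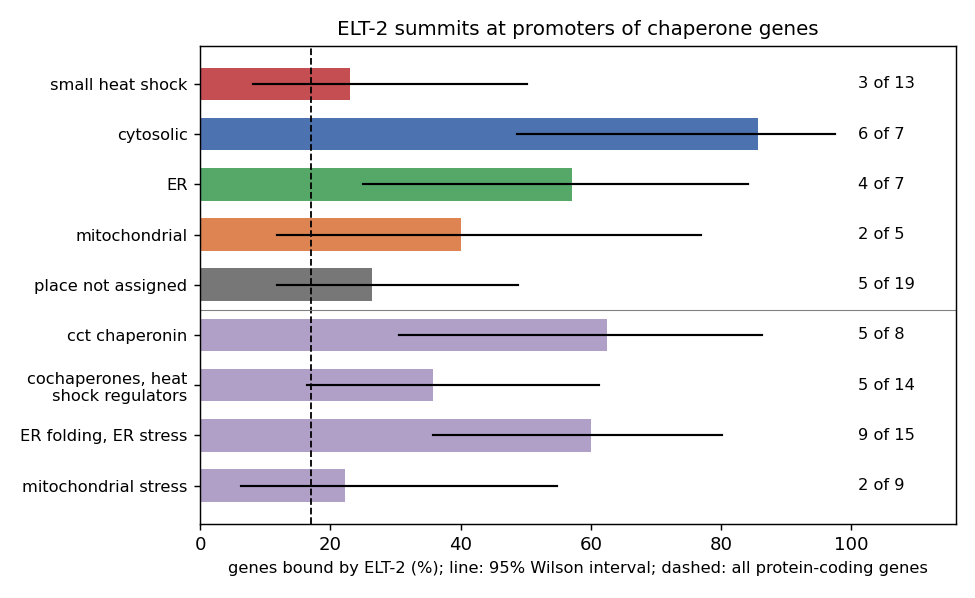
Share of genes bound by ELT-2 (x axis, percent) in 5 groups of hsp and dnj genes (coloured) and 4 lists of other chaperone and stress genes (violet), with 95% Wilson intervals as lines and the share of all protein-coding genes, 17%, dashed. Cytosolic chaperones stand highest at 6 of 7, and small heat shock genes, at 3 of 13, have an interval that spans the dashed line.

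In the cytosolic class 6 of 7 genes had a summit in the window. At hsp-90, hsp-110 and dnj-19 the 5′ end of another gene was nearer to that summit. The peak of hsp-1, the constitutive HSP70, at chrIV:17278348-17278757, lay 406 bp upstream of its 5′ end, with a signal of 401 (rank 1268 of 5443), 178 in replicate 1 and 218 in replicate 2. Signal is the enrichment statistic of the authors' peak caller, deposited per peak on a scale of its own in each list. It serves here only to rank peaks within a list. The peak of hsp-90, whose product is the cytosolic HSP90, lay at chrV:14685699-14685870 with a signal of 609 (rank 509), 387 and 233 in the replicates. Its summit fell in the first part of the annotated gene, in an intron of the longer transcript and 379 bp upstream of the start of the shorter one. The peak of hsp-110, an HSP110 exchange factor, lay at chrIII:8447091-8447216, 260 bp upstream, with a signal of 386 (rank 1337), 223 and 172 in the replicates.

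Among the cytosolic DnaJ partners, dnj-13, a counterpart of human DNAJB1, had the strongest peak of the class after hsp-90, at chrII:11545427-11545554, 226 bp upstream, with a signal of 543 (rank 679), 266 and 280.1 in the replicates. The peak of dnj-19 lay 377 bp upstream with a signal of 370.3 (rank 1446), 195 and 179.8 in the replicates. That of dnj-12 lay 134 bp upstream with a signal of 215 (rank 3366), 124 and 90.7 in the replicates. The only unbound gene of the class was hsp-70, an HSP70 that is made mainly on heat shock. Its nearest summit lay 5362 bp upstream, in an exon of cbl-1, and neither the relaxed pooled list nor a relaxed list of either replicate had a summit in its window. The relaxed lists hold all peaks that entered the IDR procedure and include background on purpose.

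The bases around some summits of the cytosolic class, from 50 before to 50 after, are printed below. In the sequences the hexamer TGATAA, or TTATCA on the other strand, which GATA factors recognize, is in capitals, as is a heat shock element. An element here means 3 GAA units in alternating orientation with 2 free bases between neighbours. All are from the plus strand of ce11, lie outside annotated protein-coding exons, and are credited to the RefSeq WBcel235 sequence. They are shown because hsp-1 holds the hexamer, hsp-110 an element, and hsp-90 and dnj-13, with the strongest peaks of the class, neither.
hsp-1, chrIV:17278503-17278603: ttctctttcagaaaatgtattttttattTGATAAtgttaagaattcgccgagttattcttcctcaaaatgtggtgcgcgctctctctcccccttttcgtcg
hsp-110, chrIII:8447119-8447219: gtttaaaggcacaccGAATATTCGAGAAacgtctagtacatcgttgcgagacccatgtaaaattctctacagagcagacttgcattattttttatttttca
hsp-90, chrV:14685731-14685831: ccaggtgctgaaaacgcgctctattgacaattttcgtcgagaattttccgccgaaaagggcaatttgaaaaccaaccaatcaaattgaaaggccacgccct
dnj-13, chrII:11545425-11545525: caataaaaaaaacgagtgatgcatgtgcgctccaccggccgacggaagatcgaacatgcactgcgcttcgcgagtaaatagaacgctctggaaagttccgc

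The BiP genes of the ER class differed. Worms have a pair of genes for BiP, the HSP70 of the ER: hsp-3, made at all times, and hsp-4, the usual reporter of ER stress. The peak of hsp-3, at chrX:6092073-6092271, lay 66 bp upstream of the 5′ end, nearer than any other member peak, with a signal of 764 (rank 268), 468 in replicate 1 and 309 in replicate 2. For hsp-4 the nearest reproducible summit lay 11612 bp upstream. The relaxed pooled list held a weak summit 333 bp upstream of hsp-4 with a signal of 78.01 (rank 10664 of 16833), and each replicate's relaxed list had one in the window too, with ranks of 11917 and 12268. In both replicates hsp-3 thus had a strong peak, at ranks 216 and 348, and hsp-4 a weak one.

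The J proteins of the ER had peaks of mixed strength. The peak of dnj-29, the worm SEC63 of the protein import channel, lay 264 bp upstream with a signal of 399.7 (rank 1276), 227 and 169 in the replicates. The peak of dnj-20, the counterpart of the BiP partner ERdj3, lay 342 bp upstream of an internal transcript start, in an intron of the gene, with a signal of 299 (rank 2064), 161 and 129.8 in the replicates. The peak of dnj-7, the counterpart of the BiP partner P58IPK, was the weakest of all member peaks, 503 bp upstream with a signal of 149.7 (rank 5140), 80.1 and 56.9 in the replicates. Neither dnj-1 nor dnj-27, whose product is the disulfide reductase ERdj5, was bound. The nearest summits lay 2719 bp downstream and 7546 bp upstream of their 5′ ends, and dnj-1 had a relaxed pooled summit with a signal of 71.4.

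The mitochondrial class included the pair of genes used as reporters of the mitochondrial stress response. The gene hsp-60, for the mitochondrial chaperonin, had 2 reproducible peaks. The first, at chrIII:1619043-1619245, lay 592 bp upstream of the outermost 5′ end with a signal of 838 (rank 217), 524 in replicate 1 and 307 in replicate 2. The other, at chrIII:1622338-1622747, lay in an intron, 585 bp upstream of an internal start, with a signal of 226 (rank 3127), 151 and 98.1 in the replicates. The gene hsp-6, for mitochondrial HSP70, had a weak peak at chrV:4826997-4827406, 442 bp upstream, with a signal of 164 (rank 4679), 71.8 in replicate 1 and 89.5 in replicate 2. It ranked 3604 in replicate 2 and 6291 in replicate 1, so with replicate 1 alone (its 5443 strongest peaks) hsp-6 is not bound and the class has 1 of 5, 20%.

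The unbound mitochondrial members were hsp-75, the counterpart of the mitochondrial HSP90 TRAP1, with the nearest summit 7669 bp upstream, and the J protein genes dnj-10 and dnj-21, with nearest summits 21457 and 1240 bp downstream. For dnj-10 the relaxed pooled list had a summit 118 bp upstream with a signal of 139 (rank 5586), 77.9 and 55.4 in the replicates. The weakest reproducible peak of all had a signal of 142, so dnj-10 missed the list by a small margin, and dnj-7 stands just inside it. The site of hsp-60 near the outermost start and that of hsp-3 are printed as strong member peaks with neither motif in view. The intronic site of hsp-60 is printed beside them because it holds the hexamer.
hsp-60 outermost start, chrIII:1619100-1619200: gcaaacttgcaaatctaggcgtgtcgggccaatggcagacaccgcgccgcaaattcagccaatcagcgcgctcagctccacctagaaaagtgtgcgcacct
hsp-3, chrX:6092140-6092240: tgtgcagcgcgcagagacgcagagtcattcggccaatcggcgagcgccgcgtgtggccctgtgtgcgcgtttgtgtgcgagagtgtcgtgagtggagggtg
hsp-60 intron, chrIII:1622493-1622593: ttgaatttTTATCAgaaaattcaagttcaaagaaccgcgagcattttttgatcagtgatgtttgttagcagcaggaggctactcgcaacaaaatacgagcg

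Of the 13 small heat shock genes 3 had a peak, a share near that of all genes, 17%. The peak at chrV:1804847-1805256 served both hsp-16.2 and hsp-16.41, genes that diverge from a common promoter and are strongly induced by heat. It lay 95 bp upstream of the former and 126 bp upstream of the latter, with a signal of 205 (rank 3582), 142 in replicate 1 and 67.8 in replicate 2. It held rank 2749 in replicate 1 and 5014 in replicate 2, within the 5443 strongest of both. The gene hsp-17 had a peak 397 bp upstream, at chrV:8386121-8386530, with a signal of 324 (rank 1809), 147 and 172 in the replicates. In the sequences below, the site of hsp-16.2 and hsp-16.41 carries a heat shock element and that of hsp-17 a TGATAA.
hsp-16.2 and hsp-16.41, chrV:1805002-1805102: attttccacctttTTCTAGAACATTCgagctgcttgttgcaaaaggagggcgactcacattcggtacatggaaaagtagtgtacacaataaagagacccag
hsp-17, chrV:8386276-8386376: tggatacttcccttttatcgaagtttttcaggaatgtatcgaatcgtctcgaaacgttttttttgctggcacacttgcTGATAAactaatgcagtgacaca

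The other 10 small heat shock genes were unbound. The 4 remaining hsp-16 genes form an inverted duplication on chromosome V from 9087293 to 9090604, in which the annotation gives the name hsp-16.1 to a pair of genes and hsp-16.48 to another pair. Of the 50-base words in that stretch 85.8% occurred more than once in the nuclear genome, and in the promoter windows of the 4 genes 93.1% to 100% did, against 0% at hsp-16.2 and hsp-16.41. Without these 4 genes, an alternative chosen after seeing the data, the small class had 3 of 9 bound, 33.3% (12.06 to 64.6). How the authors' alignment placed reads from repeated sequence is not given in the sources used here, so the lack of a peak there cannot be told apart from a lack of placed reads. The relaxed pooled list held 1 summit in the stretch, at 9088944, with a signal of 65.2 (rank 14066 of 16833). Over all genes, 10.6% had more than 10% repeated words in their window. No other unbound small heat shock gene did. Of all 51 members 8 did, the 4 of the cluster included, and all 8 were unbound. Among them were dnj-1, with 28.9% repeated words, and dnj-10, with 13.0%, so the limit on placed reads bears on these genes too.

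Of the remaining unbound small heat shock genes, hsp-12.3 had a summit 693 bp downstream of its 5′ end, in an exon near its 3′ end, with a signal of 421 (rank 1166). The same summit was the nearest to hsp-12.6, at 2414 bp. The summit nearest to hsp-25 lay 1598 bp upstream, outside the window of 1000 bp. Nearest summits lay 5325 bp upstream of hsp-43, 6714 bp downstream of hsp-12.2 and 9111 bp upstream of hsp-12.1. Of all bound members, dnj-24 was the nearest to the far edge of the window, with its summit 842 bp upstream of an internal start.

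The members with no assigned place are DnaJ genes, and 5 of the 19 were bound. The strongest member peak of all, at dnj-9, lay 223 bp upstream at chrII:4851726-4851939 with a signal of 1084 (rank 81), 658 in replicate 1 (rank 68) and 430.1 in replicate 2 (rank 138). The peak of dnj-14, for the cysteine string protein of synaptic vesicles, lay 322 bp upstream with a signal of 397 (rank 1285), 196 and 202 in the replicates. Its neighbour glit-1 was nearer, at 209 bp. The peaks of dnj-24, dnj-22 and dnj-11, whose product is a counterpart of the ribosome-associated MIDA1, had signals of 251, 230 and 211 (ranks 2704, 3066 and 3453). In replicates 1 and 2 these were 148 and 109.0 at dnj-24, 99.3 and 124 at dnj-22, and 125.2 and 75.7 at dnj-11. Unbound were 14 genes, of which dnj-16, dnj-4 and dnj-17 had the nearest summits, at 2211 bp downstream, 3514 bp upstream and 4515 bp downstream. The summit nearest to dnj-16 was that of xbp-1, which codes for the transcription factor of the ER stress response. Shown here are dnj-9, the strongest peak, which holds neither motif, and dnj-24, where TGATAA includes the summit base.
dnj-9, chrII:4851783-4851883: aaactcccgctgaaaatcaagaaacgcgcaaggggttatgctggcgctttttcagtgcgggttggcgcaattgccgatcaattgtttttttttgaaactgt
dnj-24, chrIII:5420357-5420457: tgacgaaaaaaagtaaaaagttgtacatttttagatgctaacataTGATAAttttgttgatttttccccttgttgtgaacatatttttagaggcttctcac

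Of the 31 unbound members 9 had a weaker summit in the window in the relaxed pooled list, and 7 had one in the relaxed lists of both replicates. Beside dnj-10, hsp-4 and dnj-1, these 9 were dnj-16 (signal 114, 135 bp upstream), dnj-5 (signal 111, 539 bp upstream), dnj-23 (signal 80.9, 531 bp upstream), dnj-4 (signal 79.6, 302 bp upstream), hsp-75 (signal 66.9, 712 bp upstream) and hsp-25 (signal 87.4, 148 bp downstream). The pair seen in 1 replicate alone were dnj-23, in replicate 1, and hsp-75, in replicate 2. A summit in both replicates need not be the same site. At hsp-25 the strongest lay 937 bp upstream of a 5′ end in replicate 1 and 142 bp downstream in replicate 2. The remaining 22 unbound members had no summit in the window even in that list. The 9 are 29.0% of the unbound members, and 3344 of the 16572 unbound genes, 20.2%, had such a summit.

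**Figure D2:**
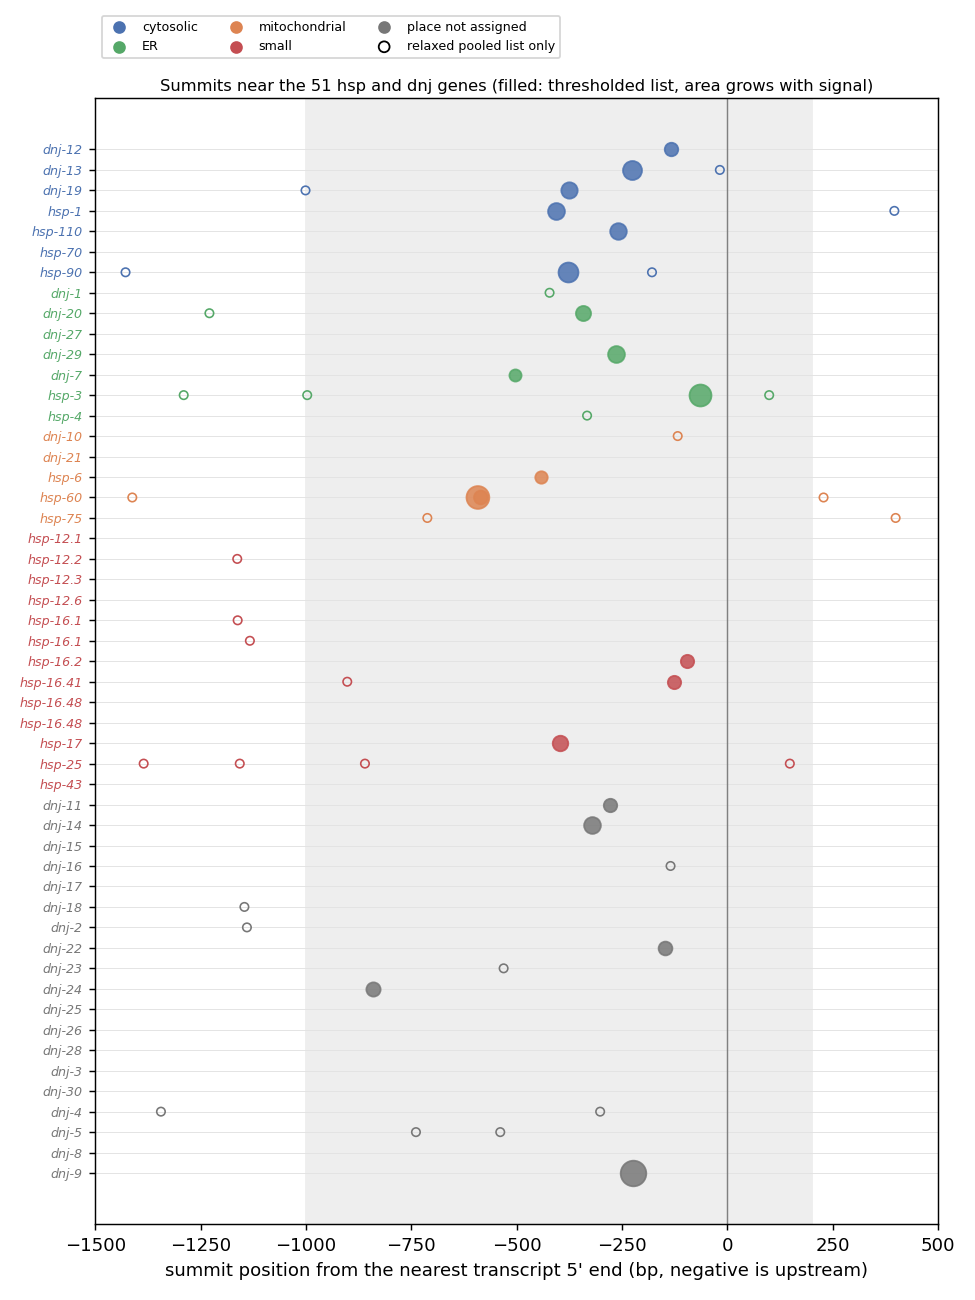
Summits around the 51 hsp and dnj genes, 1 gene per line, by distance from the nearest transcript 5′ end (x axis, bp). Filled circles are peaks of the reproducible (thresholded) list, with an area that grows with signal, and open circles are summits of the relaxed pooled list only; the grey band is the window of 1000 bp upstream to 200 bp downstream. All filled circles lie upstream of a start, from 66 bp at hsp-3 to 842 bp at dnj-24, and 10 of the 13 small heat shock genes have none.

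The bound members thus rest on 20 peaks, since hsp-16.2 and hsp-16.41 share 1 and hsp-60 has 2. All 20 summits lay upstream of a member's start, 15 in intergenic sequence and 5 in introns. The median distance to the member's start was 332 bp. To the nearest start of any gene it was 222 bp, against 183 bp over all 3076 promoter peaks. Their median signal was 347, against 251 over all promoter peaks, and 12 of the 20 were above the median promoter peak. The median member peak stood at percentile 69.9 of the promoter peaks by the signal of the reproducible list, at 58.9 by replicate 1 and at 75.1 by replicate 2. Of the 20, 18 ranked within the first 5443 in both replicates, 90%, as did 85.7% of all promoter peaks. The exceptions were hsp-6, which missed in replicate 1, and dnj-7, which missed in both.

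**Figure D3:**
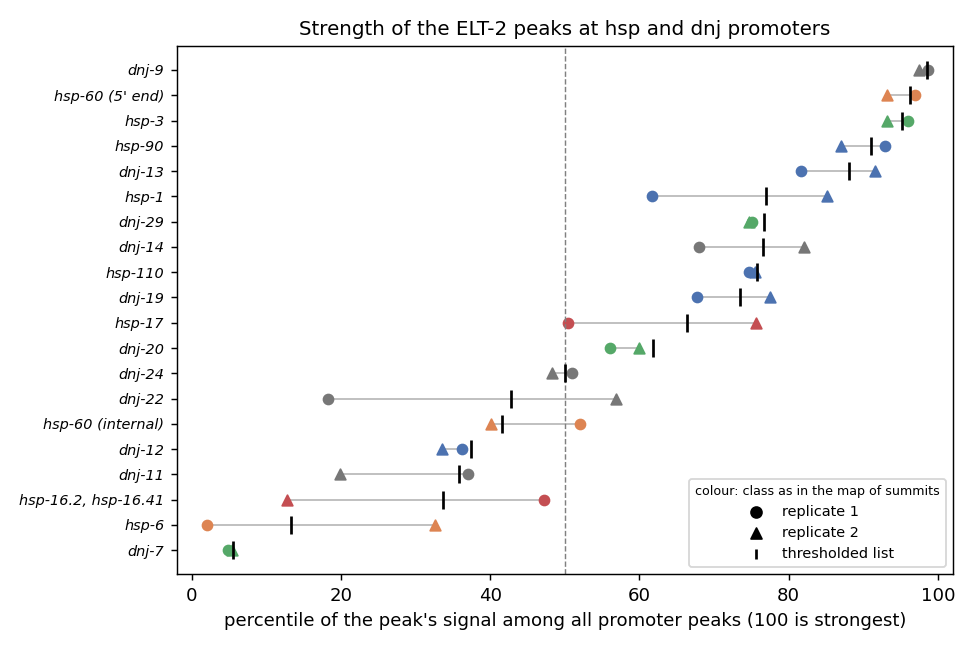
Percentile of the signal of each of the 20 member peaks among all promoter peaks (x axis, 100 is strongest), in replicate 1 (circles), replicate 2 (triangles) and the reproducible list (bars), coloured by class. The peaks of dnj-9, hsp-60, hsp-3 and hsp-90 stand high in both replicates, while the replicates are far apart at dnj-22, hsp-16.2 with hsp-16.41, and hsp-6.

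The summits were compared with the sequence that GATA factors bind. TGATAA lay within 50 bp of 4 of the 20 member summits, 20% (95% Wilson interval 8.07 to 41.6), against 42.4% of all promoter summits (40.7 to 44.1). A window of the same width 500 bp to the right held it in 2 of 20 member peaks, 10%, and in 10.2% of promoter peaks. The 4 were hsp-1, hsp-17, dnj-24 and the intronic peak of hsp-60. For the wider motif WGATAR, in which W is A or T and R is A or G, the member count was 6 of 20, 30%, against 54.6%. No TGATAA lay within 150 bp of 14 of the 20 summits, 70%, where 37.4% of promoter peaks had none. Those 14 include the peaks of dnj-9, hsp-3, hsp-90 and dnj-13 and the stronger peak of hsp-60, the 5 strongest. The 13 member peaks among the 2721 strongest peaks had it within 50 bp in 3 cases, 23.1%, against 47.3% of promoter peaks that strong. None of these differences was tested.

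Over their whole promoter windows the members did not lack the hexamer. At least 1 TGATAA stood in the windows of 40 of 51 members, 78.4%, and of 75.5% of all genes. It was there in 16 of 20 bound and 24 of 31 unbound members, 80% and 77.4%, while over all genes the shares were 86.6% of bound and 73.2% of unbound ones. Among the unbound, hsp-4 and dnj-27 held 3 copies each and hsp-12.1 held 4. Among the bound, the windows of dnj-13, dnj-11, hsp-16.2 and hsp-16.41 held none.

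Many member peaks fell in the promoter windows of neighbouring genes as well. Such a summit need not lie between genes, as those of hsp-90 and dnj-13 fell in introns, of hsp-90 and dhgd-1. Of the 20 peaks, 12 lay in the windows of more than 1 gene, 60%, where 20.6% of all promoter peaks did. In 11 of these the other gene was outside the family, and the remaining peak is that of hsp-16.2 and hsp-16.41. In 8 of the 11 the nearest 5′ end was that of a gene outside the family. The partners were of mixed kinds and included rpn-3, for a subunit of the proteasome, whose 5′ end lay 184 bp from the summit shared with hsp-110. Others were nhr-47, a nuclear receptor gene 19 bp from the dnj-19 summit, natc-1, for a subunit of an N-terminal acetyltransferase, 90 bp from that of dnj-22, and C37H5.5, 158 bp from that of hsp-6. At hsp-90 the gene C47E8.4 was nearer, at 296 bp, and at hsp-60 the gene Y22D7AL.10, at 221 bp. At dnj-29 the start of ndua-2 lay at the same distance, 264 bp. The data do not tell which gene of such a pair a peak belongs to.

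No shared member peak held the hexamer close to its summit. TGATAA lay within 50 bp of none of the 12 shared member summits (upper 95% Wilson limit 24.2%) and of 4 of the 8 that belonged to 1 gene, 50%. This split was made after seeing the data. Over all promoter peaks the same split gave 24.9% of 635 shared and 46.9% of 2441 unshared summits. Member peaks thus had both a lower share with TGATAA and a larger part of shared peaks than promoter peaks at large. Among shared peaks the members, at 0 of 12, also stood below the 24.9%, while among unshared peaks they had 50% against 46.9%. How far sharing accounts for the lower share was not tested.

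Heat shock elements were frequent at these promoters and stood near some of the summits. An element, as defined above, occurred in the windows of 17 of 51 members, 33.3%, and in 9.21% of all protein-coding genes. By class this was 6 of 7 cytosolic, 6 of 13 small, 2 of 7 ER, 2 of 5 mitochondrial and 1 of 19 other members. The bound members had it in 11 of 20 cases, 55%, and the unbound in 6 of 31, 19.4%, while over all genes bound and unbound ones had it in 10.3% and 8.99%. Within 150 bp of the summit an element lay at 5 of the 20 member peaks, 25% (11.2 to 46.9), against 51 of 3076 promoter peaks, 1.66%. These were the peaks of hsp-110, dnj-12, hsp-6, hsp-16.2 with hsp-16.41, and the stronger peak of hsp-60, all of them shared peaks without TGATAA within 50 bp. Over all promoter peaks TGATAA was within 50 bp of 29.4% of the 51 summits with an element and of 42.6% of those without. A match of letters is a description and does not show that HSF-1 binds there.

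**Figure D4:**
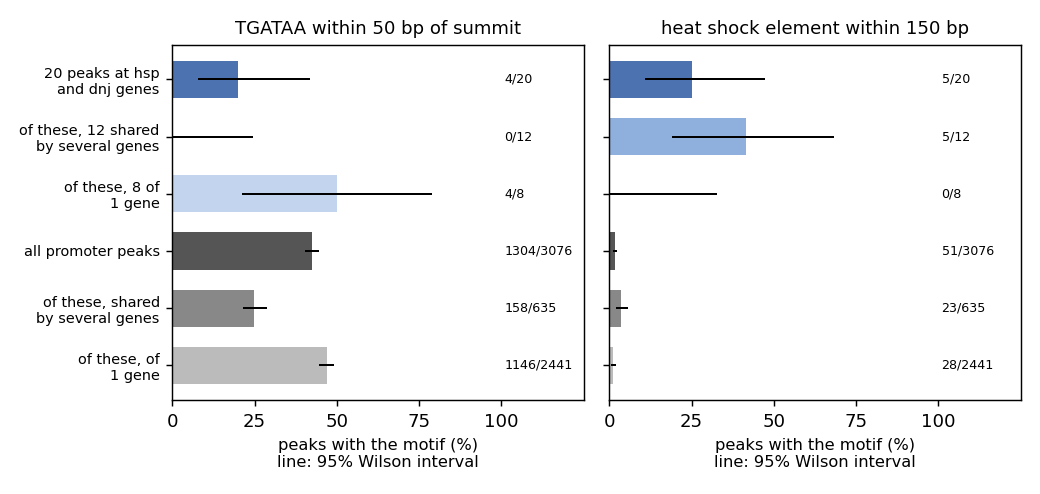
Share of peaks (x axis, percent, with 95% Wilson intervals as lines) that hold TGATAA within 50 bp of the summit (left) and a heat shock element within 150 bp (right), for the 20 peaks at hsp and dnj genes and for all 3076 promoter peaks, each split into peaks shared by several genes and peaks of 1 gene. The shared member peaks hold no TGATAA and all 5 elements.

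The motif TGACGTG, the core of a site used by ER stress factors and sought on both strands, stood in the windows of 5 of 7 ER members, namely hsp-3, hsp-4, dnj-7, dnj-20 and dnj-29, and of 11 of 51 members in all, 21.6%, against 11.4% of all genes. More sequence was searched per ER member, with a median of 2402 bp against 1201 bp over all genes. The motif lay within 150 bp of the summits of hsp-3 and dnj-7. It occurred at 123 of the 3076 promoter summits.

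The count depended on how summits were given to genes and on which peaks were used. With each summit given to its nearest 5′ end only, 12 of the 51 genes were bound, 23.5%, against 14.1% of all genes. The genes that dropped out were dnj-19, hsp-110, hsp-90, hsp-6, hsp-16.41, dnj-11, dnj-14 and dnj-22, and the cytosolic class fell from 6 to 3 of 7. With the 2721 strongest peaks 13 were bound, 25.5%, against 8.86%. With the whole relaxed pooled list 29 were, 56.9%, against 33.8%. A window from 500 bp before to 100 bp past the 5′ end gave 33.3%, against 13.2%, and one from 3000 bp before to 500 bp past gave 41.2%, against 25.2%.

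Other genes of protein folding were bound in part. In 4 lists of such genes 21 of 46 were bound, 45.7% (32.2 to 59.8), against 17% of all genes. The cytosolic chaperonin, a folding chamber made of cct proteins, had 5 of 8 genes bound, with cct-8 (signal 693, 446 bp upstream), cct-1 (signal 600.0, 231 bp upstream), cct-6 (signal 214) and cct-7 (signal 199) first. For each of the 5 a neighbouring gene was nearer, so with every summit given to the nearest start none was bound. Genes of ER folding and ER stress had 9 of 15 bound, led by crt-1, for calreticulin, 265 bp upstream (signal 682), xbp-1, 50 bp upstream (signal 574), pdi-3 (signal 540.2) and pdi-6 (signal 458), for disulfide isomerases. The sensor genes pek-1 and atf-6 were bound, whereas ire-1, the third sensor of ER stress, was not; these 3, like hsf-1 and hsb-1 below, were picked out after their values were seen.

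Cochaperones and regulators of the heat shock response had 5 of 14 bound, with ubql-1 (signal 540.2, the peak it shares with pdi-3), bag-1, for an HSP70 cochaperone, 167 bp upstream (signal 389.8), unc-23 (signal 304.5) and sti-1, which links HSP70 to HSP90, 77 bp upstream (signal 247). The fifth bound gene of this list was sip-1 (signal 205.6), which codes for a small heat shock protein and is left out of the members by its name. The gene of the heat shock factor itself, hsf-1, was unbound, with the nearest summit 27668 bp away, and so was that of its negative regulator hsb-1. Of 9 genes of mitochondrial stress 2 were bound, 22.2% (6.32 to 54.7). These were atfs-1, for the transcription factor of that response, 62 bp upstream (signal 321), and ubl-5 (signal 243). The lower limits of this list and of the cochaperones, 35.7% (16.3 to 61.2), lay below the 17% of all genes. Those of the chaperonin and ER folding lists, 30.6% and 35.7%, lay above it in this setting. The 22 peaks at these 4 lists held TGATAA within 50 bp in 2 cases, 9.09% (2.53 to 27.8).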

How the data were processed

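The series holds 2 ChIP-seq libraries of whole L1 larvae against tagged ELT-2, which the labels put in 1 group. How separate the cultures were is not stated, so the spread between replicates may be technical. The peak lists used here hold no read counts, so the depth is unknown. Per the file headers and accompanying notes, each relaxed list came from 1 replicate's alignment (17177 and 18929 peaks) or from both pooled (16833), each time with the same further file, which the notes also name for control-normalized tracks and do not describe. The IDR list (5443) came from these. The strongest peak of every bound member has the same signal and rank in it as in the pooled relaxed list. A peak in it need not rank within the first 5443 of each replicate, as dnj-7 and hsp-6 show. The signal in each deposited list is the authors' enrichment statistic. No aligner, peak caller or IDR cutoff is named in the labels or headers. Lists on ce10 were not used here.

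Transcript 5′ ends came from Ensembl release 115 (WBcel235, the ce11 sequence), and bases from RefSeq. Coordinates are 1-based. A summit counted for every gene whose window held it. Repeats were measured as 50-base words that occur more than once in the nuclear genome, on either strand. Of 32 class symbols 2 were unmatched (hsp-16.11 and hsp-16.49), because the annotation gives 4 genes 2 symbols. No p-value was computed, since 1 group allows no test over samples. The naming rule took every bound member, every unbound member of the 4 classes, the 3 other unbound members nearest to a summit, up to 4 bound genes of each further list by signal, and genes that share a member peak. Outside it, dnj-5, dnj-23, pek-1, atf-6, ire-1, hsf-1, hsb-1 and sip-1 were named after their values were seen. Members, lists and alternatives were chosen with earlier results of these data known. Window assignment was tested on simulated summits, and all 100 planted genes were recovered among 19973. Figures were drawn with matplotlib 3.10.9, and values computed with pandas 2.3.3, SciPy 1.17.1 and NumPy 2.4.6 under Python 3.11.15.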

Additional observations from a re-analysis of the deposited data

How the results depend on the processing

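The share of hsp and dnj genes bound, 39.2%, moved by more than its interval to 23.5% with nearest-end assignment, 25.5% with the 2721 strongest peaks and 56.9% with the whole relaxed pooled list. It stayed within it under both other windows, and was 37.3% without replicate 1 (3289 of 19973 genes bound) and 35.3% without replicate 2 (3397 of 19973). The former lost dnj-7 and the latter dnj-7 and hsp-6. Nearest-end assignment gave 42.9% of cytosolic, 10.5% of unassigned and 0% of chaperonin genes. The 2721 strongest peaks gave 7.69% of small and 25% of chaperonin genes. The whole relaxed list gave 85.7% of ER, 80% of mitochondrial, 87.5% of chaperonin, 86.7% of ER folding and 77.8% of mitochondrial stress genes. Over all genes these settings gave 14.1%, 8.86% and 33.8% in turn, against 17% in the main setting. The background thus moved as well. The causes were not tested. All 20 bound members were bound with the wider window, and 7 under each of the narrower window, nearest-end assignment, the 2721 strongest peaks and either replicate alone. Of 31 unbound members, 22 had no summit in the relaxed pooled list. TGATAA was within 25 bp of 10% and within 100 bp of 25% of member summits, and within 50 bp of 15% without replicate 1 and 16.7% without replicate 2. The left flank held it in 5%. The median percentile was 76.0 without replicate 1 and 66.3 without replicate 2. No paired analysis was possible because there is 1 group. With unknown depth, an unbound gene is one with no reproducible peak, not one shown to lack ELT-2.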

Other observations

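CCAAT, a pentamer read by the factor NF-Y in other species, was sought after the printed sequences of hsp-60, hsp-3 and hsp-90 had been seen, so its count is a description. It lay on either strand within 50 bp of 7 of the 20 member summits, 35% (95% Wilson interval 18.1 to 56.7), against 15.3% of all promoter summits (14.1 to 16.6). The 7 peaks were those of hsp-60 (outermost start), hsp-3, hsp-90, dnj-19, dnj-20, hsp-6 and dnj-7, of which 3 belong to ER members. The window 500 bp to the right held it in 20% of member peaks and 20.2% of promoter peaks, so over all promoter peaks the pentamer was rarer at the summit than beside it. The peaks at the 4 lists of other folding and stress genes held it in 9 of 22 cases, 40.9% (23.3 to 61.3), and 4.55% of their right flanks did. No difference was tested.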
